A study of Rattus norvegicus with 22 samples.

Results

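The genes described here encode 10 amino acid transporter proteins of the cell surface: Slc38a2, Slc38a3, Slc38a4, Slc1a4, Slc1a5, Slc7a1, Slc7a2, Slc7a5, Slc7a11 and Slc3a2. They were picked by name from knowledge of amino acid uptake in liver, with earlier results of these data already known. Each was read from the probe set whose only gene symbol in the platform annotation was that of the gene. All 10 were found, with 1 probe set each, among 18166 genes with a single symbol. RNA was read on 22 Affymetrix arrays that probe whole transcripts, 1 for the median liver lobe of each of 22 female Crl:CD(SD) rats, labelled as 12 weeks old. By its title the series used GSK932121A to inhibit complex III, the respiratory chain enzyme that hands electrons from ubiquinol to cytochrome c. The treated group (n = 10) received a single intraperitoneal dose of 50 mg/kg of GSK932121A, nanomilled and spray-dried with mannitol, hydroxypropylmethylcellulose and sodium dodecyl sulphate and suspended in water, and its livers are labelled as 5 hours after treatment. The vehicle group (n = 12) received the same carrier without the compound at the same volume of 10 mL/kg, and the labels give no time for it. Of the 12 rats dosed with GSK932121A, the submitters left out 2 with low plasma exposure, so the treated group holds only animals chosen for exposure. All rats had free access to food and water and carried an implanted temperature chip.

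Amino acids cross the hepatocyte membrane through carriers that differ in their substrates and driving forces. System A carriers (Slc38a2 and Slc38a4) take up alanine and other small neutral amino acids together with sodium, and the system N carrier Slc38a3 moves glutamine, histidine and asparagine. Slc1a4 and Slc1a5 are sodium-dependent exchangers of alanine, serine, cysteine and threonine, and Slc1a5 also carries glutamine. Slc7a1 and Slc7a2 carry arginine, lysine and ornithine. Slc7a5, which exchanges leucine and other large neutral amino acids, and Slc7a11, which brings in cystine for glutamate, reach the membrane only in a pair with the glycoprotein encoded by Slc3a2. Slc38a2 is known as a gene that amino acid shortage induces through the transcription factor ATF4, and hepatic system A activity is known to respond to glucagon and glucocorticoids.

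Promoters of 5 genes that changed are shown, 4 that rose and Slc7a5, which fell, because the members that rose did not all carry the same sequence before their start. RefSeq promoter entries of the rat build GRCr8 were matched for 7 of the 10 genes (not for Slc38a3, Slc1a5 and Slc7a2), with 8 entries in all since Slc3a2 has 2. Capitals mark matches, on either strand, to any of 5 patterns: TGATGNAAT and its shorter form TGATGNAA (C/EBP-ATF response element, bound by ATF4 with a C/EBP partner), TGACGTCA (cAMP response element), CACGTG (E-box) and TGACNNNGC (core of the antioxidant response element). Each run gives the bases before the annotated start, 5′ to 3′ on the strand of the gene. For Slc1a4 the run stops where a longer annotated transcript begins.
Slc38a2, chr7:129742620-129742869, minus strand: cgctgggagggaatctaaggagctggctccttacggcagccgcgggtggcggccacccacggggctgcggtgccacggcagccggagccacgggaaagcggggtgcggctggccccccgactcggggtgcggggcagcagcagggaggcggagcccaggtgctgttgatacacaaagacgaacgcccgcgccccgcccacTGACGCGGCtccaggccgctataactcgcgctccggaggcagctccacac
Slc38a4, chr7:130082170-130082419, minus strand: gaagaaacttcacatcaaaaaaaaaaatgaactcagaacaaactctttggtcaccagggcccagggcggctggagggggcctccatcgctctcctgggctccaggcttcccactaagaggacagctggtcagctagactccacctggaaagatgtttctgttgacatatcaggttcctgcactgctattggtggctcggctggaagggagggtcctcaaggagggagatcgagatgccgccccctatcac
Slc1a4, chr14:98761673-98761812, minus strand: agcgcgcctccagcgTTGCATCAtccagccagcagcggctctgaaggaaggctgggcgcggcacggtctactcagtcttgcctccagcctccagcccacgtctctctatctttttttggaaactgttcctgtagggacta
Slc7a1, chr12:11664238-11664487, plus strand: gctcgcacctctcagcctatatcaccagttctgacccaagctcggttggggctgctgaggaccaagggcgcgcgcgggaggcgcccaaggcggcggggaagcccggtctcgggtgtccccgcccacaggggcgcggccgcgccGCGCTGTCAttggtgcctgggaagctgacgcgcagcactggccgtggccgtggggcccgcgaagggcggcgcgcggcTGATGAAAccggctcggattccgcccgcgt
Slc7a5, chr19:66872413-66872662, minus strand: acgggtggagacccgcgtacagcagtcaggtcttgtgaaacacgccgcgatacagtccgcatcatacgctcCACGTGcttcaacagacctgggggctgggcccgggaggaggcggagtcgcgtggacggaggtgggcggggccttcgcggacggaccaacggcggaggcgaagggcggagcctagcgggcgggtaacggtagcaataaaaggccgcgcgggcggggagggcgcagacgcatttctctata

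Over the 250 bases before each start, TGATGNAAT was found in 0 of the 7 matched genes, against 0.944% of all 33469 promoter entries, and TGACGTCA likewise in 0, against 1.59%. The shorter TGATGNAA, a search added after the data were seen, matched Slc1a4, as TTGCATCA on the opposite strand 228 to 235 bases before the start of its entry, and Slc7a1, 23 to 30 bases before the start. It occurred in 3.4% of all entries. CACGTG was found before Slc1a4, within the bases not shown, and before Slc7a5, against 5.59% of all entries. TGACNNNGC was found before Slc38a2, Slc7a1 and 1 of the entries of Slc3a2, against 10.1%. A match describes letters only, and a missing match says nothing about sites elsewhere in the gene.

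Of the 10 transporter genes, 6 rose and 1 fell after GSK932121A at an adjusted p under 0.05, and 3 did not pass (limma, Benjamini-Hochberg over all genes). The background was high: 12.4% of all 18166 genes passed, 5.31% as rises and 7.05% as falls, and of genes whose log2 values averaged at least 7, 23% passed. The median log2 difference of the 10 genes was 0.49, against -0.01 over all genes. Because the 10 genes were chosen with earlier results of these data known, these counts and medians are a description only. The genes that rose were Slc38a2 and Slc38a4 of system A, Slc1a4 of the alanine and serine exchangers, the cationic carriers Slc7a1 and Slc7a2, and the heavy chain Slc3a2. In 4 genes, Slc38a2, Slc38a4, Slc1a4 and Slc7a2, all 10 treated livers lay above the highest of the 12 vehicle livers, which held for 0.457% of all genes. Slc7a5 was the only member that fell. Tested against a 1.2-fold change in place of none, Slc7a1 (adjusted p = 0.0844), Slc7a5 (0.121) and Slc3a2 (0.642) no longer passed. In that test 313 of all 18166 genes passed.

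**Figure D1:**
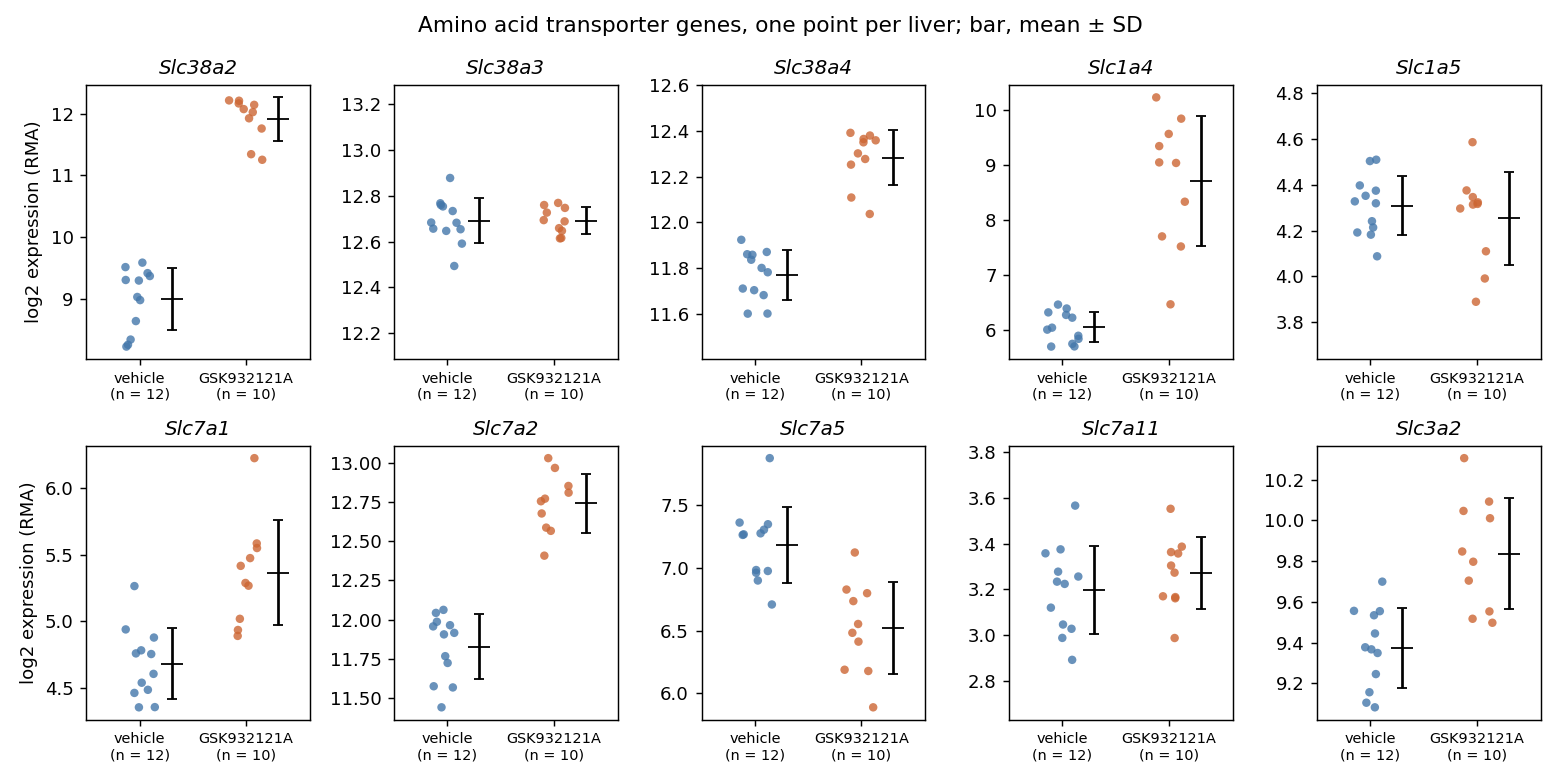
Log2 expression (RMA) of the 10 transporter genes in each liver, with its own y axis for each gene. Points are livers (vehicle n = 12, GSK932121A n = 10) and bars are mean ± SD. The groups do not overlap for Slc38a2, Slc38a4, Slc1a4 and Slc7a2, though for Slc1a4 the gap is only 0.0049. They overlap for the other 6, and Slc1a4 shows the widest spread among treated livers, from 6.46 to 10.24.

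The arrays had medians between 4.73 and 4.85 on the log2 scale, and any pair of them correlated across genes at 0.971 to 0.990. Liver identity was checked first: 8 of 10 listed hepatocyte markers were measured, with vehicle means from 8.30 to 13.41, all above the array medians. Of these, only Cps1, the entry enzyme of the urea cycle, passed, with a 1.25-fold rise. Of 41 measured markers of Kupffer cells, neutrophils, lymphocytes, endothelium, stellate cells, bile duct and red cells, 2 rose and 0 fell: Cd163, a macrophage scavenger receptor, by 1.28-fold and Lyve1, of sinusoidal endothelium, by 1.16-fold. The mean log2 level of these 41 markers ran from 5.85 to 6.15 in vehicle and from 5.87 to 6.36 in treated livers, so the ranges overlapped. Their part in the changes of the transporters was not tested. In whole liver, a change in the number of cells of a type and a change in RNA per cell cannot be told apart.

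Slc38a2, the system A carrier best known for its response to amino acid supply, showed the largest rise of the 10 genes and the smallest p of all 18166 genes tested. Its log2 level (probe set 17840461) ran from 8.23 through a median of 9.17 to 9.59 in the 12 vehicle livers, and from 11.25 through 12.05 to 12.21 in the 10 treated livers. The groups were 1.66 log2 units apart at their nearest points, and the treated livers lay closer together (range 0.96) than the vehicle livers (range 1.36). The difference was 2.91 ± 0.17 (SE) on the log2 scale, a 7.51-fold rise (95% interval 5.88 to 9.59, adjusted p = 3.39e-11). By size, it ranked 9th among all rises.

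Slc38a4, the system A carrier characteristic of adult liver, rose much less, though all 10 treated livers lay above every vehicle liver. Its log2 level (probe set 17840480) had a lowest, median and highest value of 11.60, 11.79 and 11.92 in vehicle livers and 12.04, 12.33 and 12.39 in treated livers. The lowest treated liver lay 0.11 above the highest vehicle liver. The rise was 1.43-fold (0.51 ± 0.06 SE on the log2 scale, adjusted p = 1.13e-06).

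Slc38a3, the glutamine carrier of system N, did not pass. Probe set 17855584 gave log2 levels that ran from 12.49 to 12.88 with a median of 12.68 in vehicle livers and from 12.61 to 12.77 with a median of 12.69 in treated livers. Every treated liver lay within the vehicle range. The 95% interval of the fold ran from 0.93 to 1.07, so a small change in either direction is not excluded (limma, adjusted p = 0.998).

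Among protein-coding genes of the RefSeq table for GRCr8, Slc38a1, Slc38a2 and Slc38a4 are direct neighbours on chromosome 7. Slc38a1, the remaining member of system A, named here after its values were seen, had a mean log2 level of 4.99 in vehicle and 5.19 in treated livers. Its difference of 0.20 ± 0.09 (SE) did not pass (adjusted p = 0.146), although 5 of 10 treated livers lay above every vehicle liver. These levels lie close to the array medians of 4.73 to 4.85, so the change of Slc38a1 may be compressed. Between Slc38a2 and Slc38a4 the rise was unequal. The log2 ratio of Slc38a2 to Slc38a4 within an array was 2.40 ± 0.15 (SE) higher in treated livers. A two-sided permutation test with 100000 resamples gave p = 1e-05, the smallest these can give (adjusted p = 2e-05 over 6 pairs).

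Slc1a4, an exchanger of alanine, serine, cysteine and threonine also named ASCT1, had the second largest rise and by far the widest spread among treated animals. In vehicle livers its log2 level (probe set 17696492) ran from 5.69 through a median of 6.02 to 6.46. In treated livers it ran from 6.46 through 9.05 to 10.24, and the SD was 1.19 against 0.28 in vehicle. The lowest treated liver, GSK932121A replicate 24, lay only 0.0049 above the highest vehicle liver, and replicates 20 and 17 followed at 7.52 and 7.70, while the other 7 lay at 8.33 or higher. The rise was 6.36-fold (2.67 ± 0.31 SE on the log2 scale, 95% interval 4.07 to 9.93, adjusted p = 1.79e-06). Since limma took the same variance for both groups, this interval may be too narrow for SDs this unequal. With 5 surrogate variables for hidden factors the difference was 1.45 (adjusted p = 0.000445). Of the variance of group, 45.5% lay in these variables.

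Slc1a5, its close relative ASCT2 and a major glutamine carrier of dividing cells, did not pass and was dim. The log2 values of probe set 17613677 had a lowest, median and highest of 4.09, 4.32 and 4.51 in vehicle livers and 3.89, 4.32 and 4.59 in treated livers. All of these lie below every array median, where differences are compressed, so the interval of the difference, -0.21 to 0.10 (adjusted p = 0.729), bounds only what the array could show. The within-array ratio of Slc1a4 to Slc1a5 was 2.72 ± 0.39 (SE) higher in treated livers (permutation test, adjusted p = 2e-05), which with Slc1a5 this dim restates the rise of Slc1a4 and does not show that the changes of the 2 genes were unequal.

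Slc7a2, the low-affinity cationic carrier through which liver takes up arginine, rose in every treated animal. On the log2 scale its level (probe set 17711968) ran from 11.44 through a median of 11.91 to 12.06 in vehicle livers and from 12.41 through 12.76 to 13.03 in treated livers. The groups were 0.35 apart, and their ranges, 0.62 in each, were alike. The rise was 1.89-fold (0.92 ± 0.08 SE on the log2 scale, 95% interval 1.67 to 2.13, adjusted p = 5.69e-08), the 15th smallest p of all genes.

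Slc7a1, the high-affinity cationic carrier found in most cells other than adult hepatocytes, rose from near the background. Its log2 level (probe set 17671549) ran from 4.36 through a median of 4.68 to 5.27 in vehicle livers and from 4.89 through 5.35 to 6.23 in treated livers. The groups overlapped, with 7 of 10 treated livers above every vehicle liver, and replicate 13 stood above the other treated livers. The rise was 1.61-fold (0.68 ± 0.13 SE, adjusted p = 0.000695) and its call ended with surrogate variables (0.52, adjusted p = 0.0736). Both cationic carriers therefore rose, and the change in their ratio, Slc7a1 to Slc7a2, was -0.23 with a 95% interval from -0.57 to 0.10 (permutation test, p = 0.16, adjusted p = 0.16), where the change of the dim Slc7a1 may be compressed.

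Slc3a2, the heavy chain 4F2hc that carries Slc7a5 and Slc7a11 to the membrane, rose modestly. Its log2 level (probe set 17640252) ran from 9.08 through a median of 9.37 to 9.70 in vehicle livers and from 9.50 through 9.82 to 10.31 in treated livers. The groups overlapped, and 7 of 10 treated livers lay above every vehicle liver. The rise was 1.38-fold (0.47 ± 0.10 SE, adjusted p = 0.00164), and its call ended with surrogate variables (0.36, adjusted p = 0.0632).

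Its partner Slc7a5, the large neutral amino acid exchanger LAT1, moved the other way. The log2 level of Slc7a5 (probe set 17734078) ran from 6.71 through a median of 7.26 to 7.87 in vehicle livers and from 5.89 through 6.52 to 7.12 in treated livers. Here 6 of 10 treated livers lay below every vehicle liver, and replicate 24, at 7.12, differed least from the vehicle mean. The fall was 1.59-fold (-0.66 ± 0.13 SE on the log2 scale, adjusted p = 0.000988), and its call ended with surrogate variables (-0.60, adjusted p = 0.0619). The log2 ratio of Slc3a2 to Slc7a5 was 1.13 ± 0.16 (SE) higher in treated livers, above every vehicle liver in 9 of 10 (permutation test, adjusted p = 3e-05).

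Slc7a11, the cystine carrier that supplies glutathione synthesis and is named xCT, did not pass. Values of probe set 17747235 on the log2 scale ran from 2.89 through a median of 3.23 to 3.57 in vehicle livers and from 2.99 through 3.29 to 3.55 in treated livers, far below the array medians. All treated livers lay within the vehicle range, and the interval of the difference was -0.08 to 0.23 (adjusted p = 0.618). The ratio of Slc3a2 to Slc7a11 was 0.39 ± 0.13 (SE) higher in treated livers (permutation test, adjusted p = 0.00612), with only 4 of 10 above every vehicle liver. With Slc7a11 this dim, that ratio restates the rise of Slc3a2 and does not show unequal change.

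**Figure D2:**
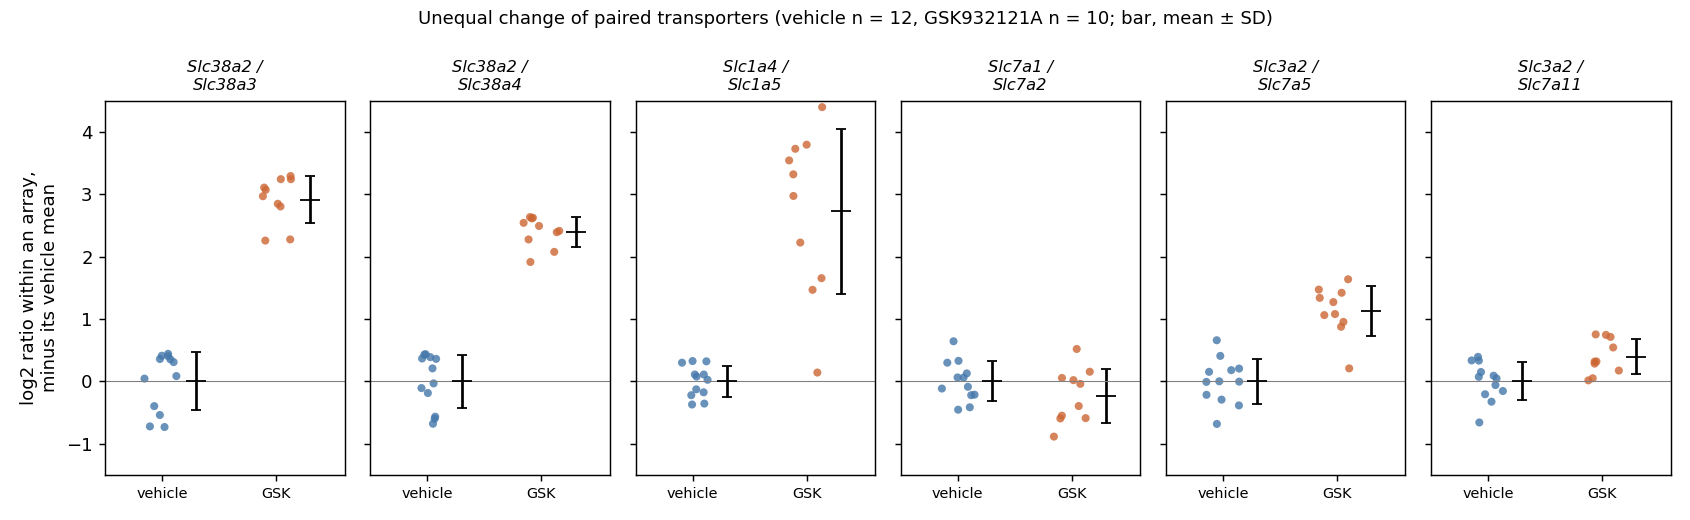
Log2 ratio of transporter pairs within each array, less the mean of the vehicle livers, for vehicle (n = 12) and GSK932121A (n = 10, marked GSK). Points are livers and bars are mean ± SD. The ratios of Slc38a2 to Slc38a3 and to Slc38a4 stand clear of vehicle in all 10 treated livers, and that of Slc7a1 to Slc7a2 overlaps it.

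In all, 6 pairs were compared by ratio, and 5 differed between the groups after adjustment over the pairs, of which those with Slc1a5 and Slc7a11 rest on a gene below the array medians. The remaining comparison, of Slc38a2 with Slc38a3, gave 2.91 ± 0.18 (SE; permutation test, adjusted p = 2e-05). For the other 3, Slc38a2 with Slc38a3, Slc38a2 with Slc38a4 and Slc3a2 with Slc7a5, the ratio shows that the changes of the members were unequal, and it sets no level of a gene against another.

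**Figure D3:**
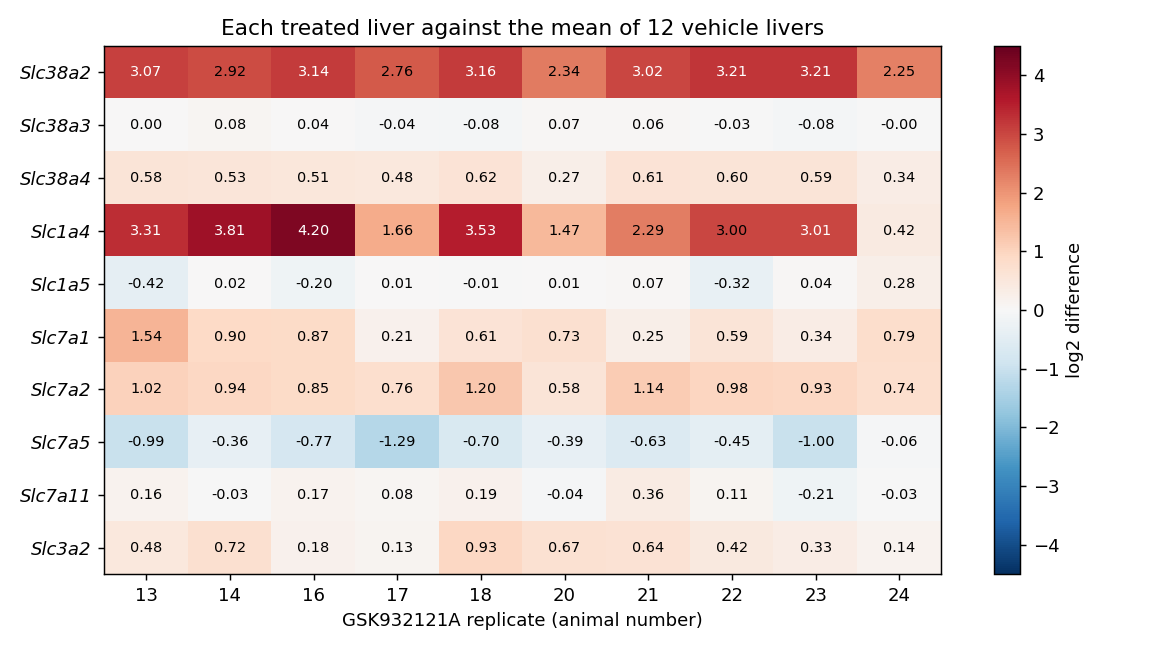
Log2 difference of each treated liver from the mean of the 12 vehicle livers, for the 10 transporter genes (rows) and the 10 GSK932121A replicates (columns, animal numbers from the labels). Red is higher and blue lower. Slc38a2 lies between 2.25 and 3.21 in all animals, while Slc1a4 ranges from 0.42 in replicate 24 to 4.20 in replicate 16.

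The animals did not rank alike for all genes. Replicate 24 had the smallest rise of Slc38a2 (2.25 above the vehicle mean on the log2 scale), the smallest rise of Slc1a4 (0.42) and the smallest fall of Slc7a5 (-0.06). For Slc7a1 the same liver stood 0.79 above the vehicle mean, more than 6 of the other treated livers. Replicate 20 had the smallest rises of Slc38a4 (0.27) and Slc7a2 (0.58) but a rise of Slc3a2 of 0.67, above the group's mean difference. Without replicate 24, the mean differences were 2.98 for Slc38a2, 2.92 for Slc1a4 and -0.73 for Slc7a5.

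Covariation was examined within each group, since the groups form separate clusters. Slc38a2 was set against each of the other 9 genes in treated and in vehicle livers, 18 relations in all. In treated livers (n = 10) Slc38a4 followed Slc38a2 with Pearson's r = 0.93 (permutation p = 0.00168, adjusted p = 0.0253) and Spearman's rho = 0.75 (permutation p = 0.0179, adjusted p = 0.133). The same pair in vehicle livers (n = 12) gave r = 0.76 (permutation p = 0.00562, adjusted p = 0.0253) and rho = 0.71 (permutation p = 0.0121, adjusted p = 0.133).

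Slc7a2 followed Slc38a2 in both groups as well. In vehicle livers r was 0.78 (permutation p = 0.00441, adjusted p = 0.0253) and rho 0.66 (permutation p = 0.0221, adjusted p = 0.133). In treated livers r was 0.76 (permutation p = 0.0102, adjusted p = 0.0367) and rho 0.59 (permutation p = 0.08, adjusted p = 0.288). Slc1a4 did so in treated livers, at r = 0.84 (permutation p = 0.00283, adjusted p = 0.0253) and rho = 0.59 (permutation p = 0.0798, adjusted p = 0.288), while in vehicle livers r was 0.06 (permutation p = 0.84, adjusted p = 0.945); the difference between the groups was not tested.

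No relation passed by rank after adjustment. Leaving out the 2 arrays farthest from the median of Slc38a2, which are replicates 20 and 24 among the treated, r fell to 0.66 for Slc38a4, 0.44 for Slc7a2 and 0.53 for Slc1a4 in treated livers, and 0 of 18 relations passed. In vehicle livers it was 0.69 for Slc38a4 and 0.76 for Slc7a2. Leaving out the arrays farthest from the median of Slc38a2 narrows its range and lowers the number of arrays, which can lower r by itself. Whether the relations of the treated group rest on those animals therefore cannot be told from this step. Slc38a4 and Slc7a2 themselves correlated at 0.91 in treated and 0.83 in vehicle livers, given as a description.

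**Figure D4:**
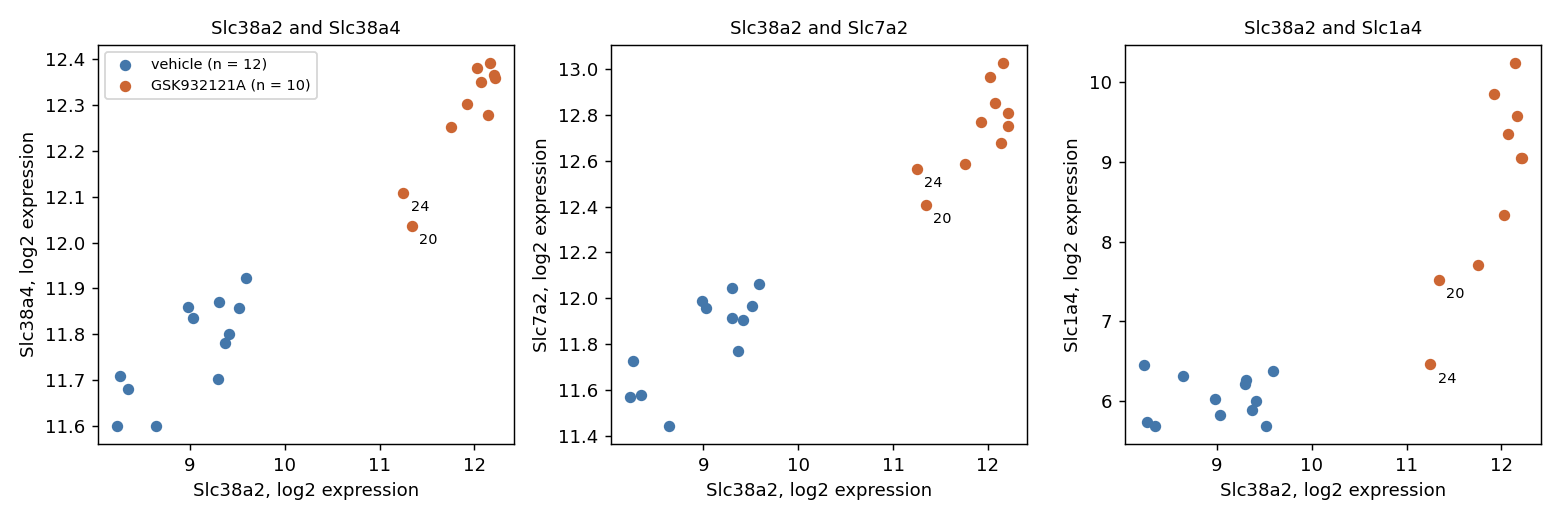
Log2 expression of Slc38a4, Slc7a2 and Slc1a4 (y axes) against Slc38a2 (x axes) in each liver, vehicle (n = 12) and GSK932121A (n = 10). Treated replicates 20 and 24 are numbered. Within treated livers r was 0.93, 0.76 and 0.84, and these replicates form the low end of each cloud.

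The genes whose pattern was most like that of Slc38a2 were sought by Pearson's r over the 22 arrays after centring each group. Of 10409 other genes whose log2 values averaged at least 5, those with only a locus symbol (LOC or RGD) were left out of the ranking. Dusp1, a phosphatase that switches off MAP kinases, came first at 0.82, followed by Slc38a4 and by Slc25a25, which moves ATP-Mg against phosphate across the inner mitochondrial membrane, at 0.81 each. Dusp1 and Slc25a25 had log2 differences of 1.24 and 2.00. For Slc7a5 the nearest were Josd2, a deubiquitinating enzyme (r = 0.80), Lims2, a focal adhesion adaptor (0.77), and Zfyve21, a FYVE-domain protein (0.74), with log2 differences of -0.26, -0.75 and -0.40. These r values are a description of the most alike among many genes.

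Other amino acid transporters were counted in the same way. Of 38 listed plasma membrane and lysosomal carriers, 36 were measured, of which 1 rose, 1 fell and 34 did not pass. Among all genes 5.31% rose and 7.05% fell. The median log2 difference of the 36 was -0.0041. Slc16a10, the aromatic amino acid carrier TAT1, was at 9.53 ± 0.25 on the log2 scale in vehicle and 10.23 ± 0.38 in treated livers (SD, n = 12 and 10), a 1.62-fold rise (adjusted p = 0.000365), with 6 of 10 treated livers above every vehicle liver. Slc38a9, the lysosomal arginine sensor that reports to mTORC1, fell by 0.26 on the log2 scale, with means of 7.55 ± 0.16 and 7.30 ± 0.14 (SD; adjusted p = 0.0138), and its call ended with surrogate variables (adjusted p = 0.476). Against a 1.2-fold change neither Slc16a10 (adjusted p = 0.0537) nor Slc38a9 passed. Only 23 of the 36 had a vehicle mean above the highest array median, so changes in the rest may be compressed. Leaving out GSK932121A replicate 17 or replicate 24 raised the count of calls from 2 to 4.

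**Figure D5:**
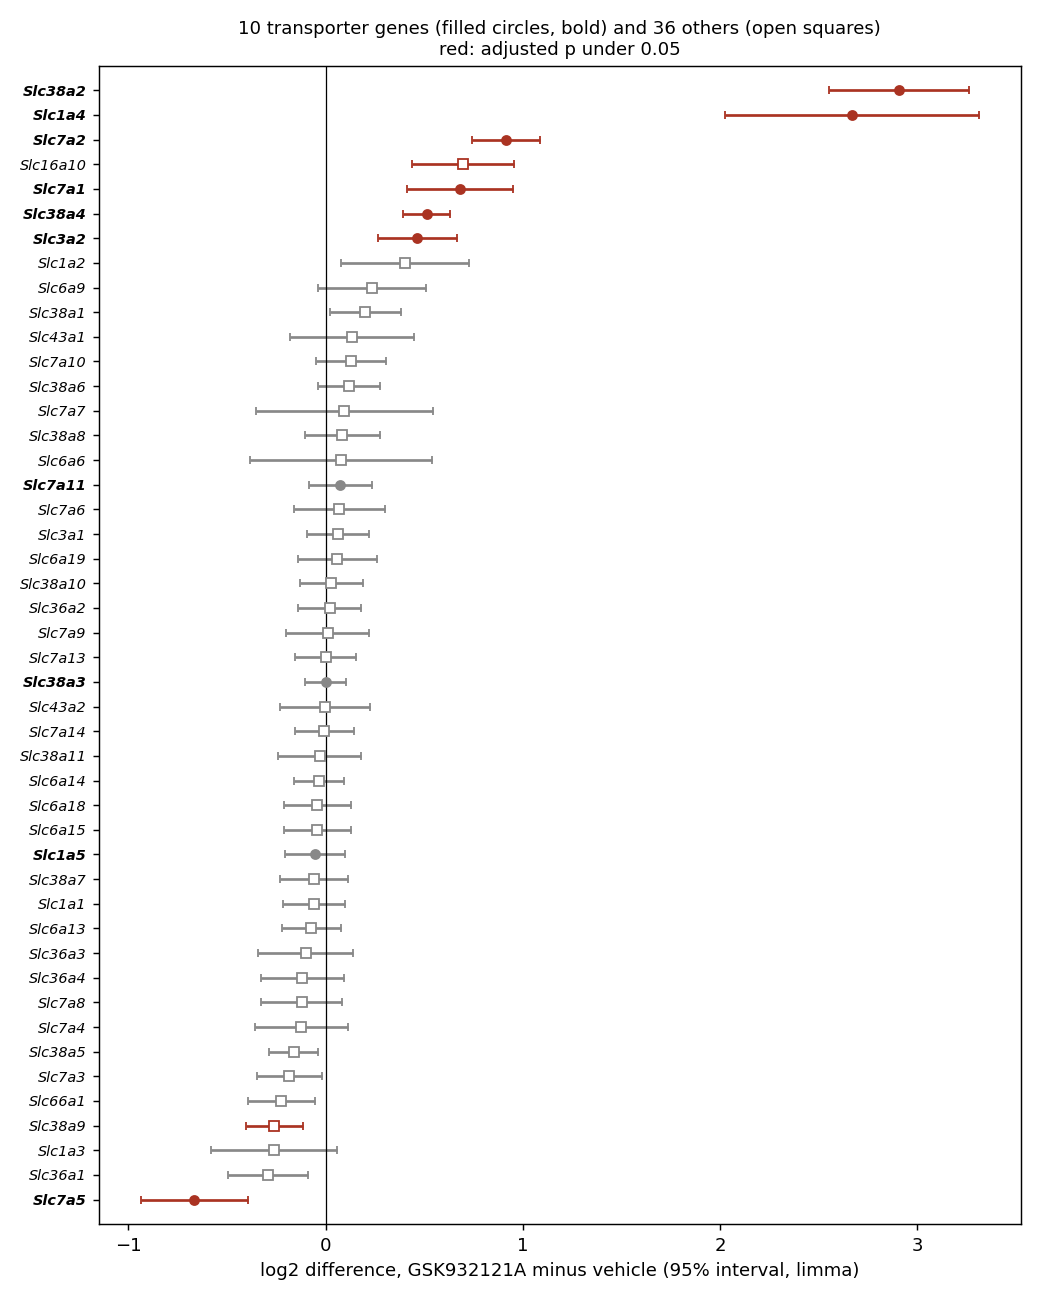
Log2 difference between GSK932121A and vehicle livers, with 95% intervals from limma, for the 10 transporter genes (filled circles, bold names) and 36 other amino acid transporters (open squares). Red marks an adjusted p under 0.05. Slc38a2 (2.91) and Slc1a4 (2.67) stand far to the right, Slc7a5 (-0.66) is farthest to the left, and most others lie near 0.

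Genes that sense amino acids or set transporter turnover moved in both directions. Among all genes 5.31% rose and 7.05% fell, and of genes whose log2 values averaged at least 7, 23% passed. Of the 29 genes of this list that were measured, 5 rose and 5 fell, with a median log2 difference of -0.04. All 29 had vehicle means above the array medians. The largest rise was that of Sgk1 (2.25-fold, adjusted p = 0.000206), a kinase known to keep the ubiquitin ligase Nedd4-2 from removing membrane transporters. Nedd4l, which encodes that ligase, rose 1.18-fold (adjusted p = 0.0404), and Fnip1, a folliculin partner in lysosomal amino acid sensing, rose 1.42-fold (adjusted p = 0.000323). Flcn, folliculin itself, and Rraga, a Rag GTPase, rose 1.31-fold and 1.22-fold. The falls were those of Castor2 (1.40-fold), Lamtor2 (1.26-fold), Sesn1 (1.26-fold), Eif4ebp1 (1.25-fold) and Nprl2 (1.19-fold), parts of or inputs to the mTORC1 pathway. The RNA of Atf4, the transcription factor, differed by 0.09 on the log2 scale and did not pass (adjusted p = 0.447). The level and activity of the ATF4 protein were not measured. With surrogate variables 1 of these 10 calls was kept, that of Sesn1, while calls over all 18166 genes went from 2244 to 603. The calls of Sesn1, Eif4ebp1 and Nedd4l were also lost in many of the fits that left out a single array. The highest adjusted p then was 0.0871 for Sesn1 (GSK932121A replicate 21 left out), 0.106 for Eif4ebp1 (replicate 13 left out) and 0.0855 for Nedd4l (replicate 18 left out).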

How the data were processed

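Each array is 1 rat liver, grouped by its label. Per the submitters' processing notes, the authors deposited log2 values made by RMA, a method of background correction, normalisation between arrays and summary of probes. Software, version and genome build: not given in the sources used here. Normalisation between arrays hides any shift shared by all genes. Near the background, differences of dim genes are compressed. Of 36685 probe sets, 18511 had 1 symbol, 575 several and 17599 none. The highest-mean probe set stood for a gene.

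All 18166 genes were fitted in limma 3.58.1 (R 4.3.3) on group alone, without trend or robust settings, with Benjamini-Hochberg adjustment and calls at an adjusted p under 0.05. The fit was tested on simulated data with normal noise, using the vehicle SD of each gene in both groups. It recovered 37.3% of 1.2-fold, 91.0% of 1.5-fold and 100% of 2-fold changes, with 13 false calls. Unequal SDs, as for Slc1a4, were not simulated. Pairs and correlations used two-sided permutation tests with 100000 resamples (numpy 2.4.6, scipy 1.17.1, Python 3.11.15), plots matplotlib 3.10.9. Members, pairs, lists and motifs were chosen with earlier results of these data known. The rule named all 10 members, other transporters that passed, and, leaving out LOC and RGD symbols, the 3 genes most like Slc38a2 and Slc7a5. Further genes were named where a count was 5 or fewer, and Slc38a1 and Atf4 after their values were seen. Alternatives were median centring, quantile and cyclic loess normalisation, filters at 5 and 7, mean of probe sets, all probe sets, trend and robust settings, array weights, surrogate variables (limma's wsva), the Wilcoxon test, a 1.2-fold threshold and each array left out. Protein sequences were not used here. No batch is labelled, and the number of arrays limits the precision.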

Additional observations from a re-analysis of the deposited data

Results flagged for a closer look

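In the treated group, 1 liver stood apart for Slc7a1: GSK932121A replicate 13 had a log2 level of 6.23, and its gap to the next liver was 0.48 of the group's range, more than Dixon's 95% critical value allows for 10 samples. Chance flags about 1 in 20 groups, and 12 genes were examined. Without that liver Slc7a1 differed by 0.59 on the log2 scale (limma, adjusted p = 0.000857).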

How the results depend on the processing

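The counts of members that rose (6) and fell (1) were the same under median centring, quantile and cyclic loess normalisation, all probe sets, mean of probe sets, array weights, trend with robust settings, the Wilcoxon test and each array left out (called 7 to 7). With surrogate variables 4 members passed and 0 fell, and against a 1.2-fold change 4 passed and 0 fell. Calls over all 18166 genes went from 2244 to 603 with surrogate variables and to 313 against a 1.2-fold change. The filters at 5 and 7 left Slc7a1, Slc1a5 and Slc7a11 untested, so 5 rose, and that at 7 also left out Slc7a5, so 0 fell. Other transporters gave 4 calls with the filter at 5 and 4 at 7, 0 against a 1.2-fold change and 2 to 4 with single arrays left out. The sensing list gave 1 call with surrogate variables and 1 against a 1.2-fold change. Of the 18 relations with Slc38a2, 5 passed by Pearson's r, 0 by Spearman's rho and 0 without the 2 farthest arrays. The added motif TGATGNAA matched 2 genes in place of 0. Slc38a3, near 0, changed sign with median centring (-0.0017), array weights (-0.0035), surrogate variables (-0.012) and single arrays left out (-0.018 to 0.017), and Slc1a5 with surrogate variables (0.079), none of them called. The cause was not tested, apart from the filter. No paired analysis was possible because the groups share no replicate numbers. Signal near the background limits Slc1a5, Slc7a1 and Slc7a11.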
